A study of Homo sapiens with 6 samples.

Results

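Integrin subunit genes of keratinocyte migration were examined in HaCaT cells, an immortalized line of human keratinocytes. The members were chosen by name: *ITGB1*, *ITGA2*, *ITGA3*, *ITGA5*, *ITGAV*, *ITGB5*, *ITGB6* and *ITGB8*, 8 of the 12499 genes in the deposited count table, and all 8 passed the filter on low counts. Cells of one group (LV-NC) received a negative control lentivirus, and those of the other (LV-*ATF7*) a lentivirus meant to overexpress *ATF7*, a transcription factor of the ATF/CREB family. The vector carries a puromycin resistance cassette beside the coding sequence of *ATF7*. Infection lasted 48 hours and was followed by 24 hours in high glucose medium in both groups, so no library comes from cells kept in normal glucose. Poly(A) RNA was sequenced from 3 replicates per group. Whether the replicates were separate cultures is not stated, so p-values measure the spread between these libraries.

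Integrins are receptors built from an alpha and a beta subunit, and they join the cytoskeleton to the matrix outside the cell. In the epidermis, basal keratinocytes carry α2β1, which binds collagen, α3β1, which binds laminin-332, and αvβ5, which binds vitronectin. At a wound edge, migrating keratinocytes also show the fibronectin receptor α5β1 and αvβ6, which binds fibronectin, tenascin and latent TGF-β. The receptor αvβ8 likewise activates latent TGF-β. The β5, β6 and β8 subunits pair with αv alone, whereas β1 pairs with many alpha subunits, so *ITGB1* and *ITGAV* are the shared partners in this family.

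On GRCh38 (GENCODE release 29), *ITGB1* (ENSG00000150093) lies at chr10:32900319-33005792 on the minus strand and *ITGA2* (ENSG00000164171) at chr5:52989326-53094779 on the plus strand. *ITGA3* (ENSG00000005884) lies at chr17:50055968-50090481 on the plus strand and *ITGA5* (ENSG00000161638) at chr12:54395261-54419460 on the minus strand. *ITGAV* (ENSG00000138448) and *ITGB6* (ENSG00000115221) are both on chromosome 2, at chr2:186590065-186680901 on the plus strand and chr2:160099666-160200313 on the minus strand. *ITGB5* (ENSG00000082781) lies at chr3:124761948-124901418 on the minus strand and *ITGB8* (ENSG00000105855) at chr7:20330702-20415754 on the plus strand. All are protein coding. *ITGB6* shares 20.6% of its exon bases with *AC092153.1* on the same strand, and its count is uncertain to that extent, since how the authors treated such reads is not stated. *ITGAV* shares 2.47% of its exon bases with a gene on the opposite strand, and each other member shares at most 0.699%.

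ATF7 binds the cAMP response element, and family members also join AP-1 factors, so the promoter windows of the subunit genes were searched for both motifs. RefSeq windows (GRCh38.p14) of 300 bases, from 250 before to 50 after an annotated start, matched 7 of the 8 genes with 11 windows. The element TGACGTCA was found on either strand in 0 of these 11 windows and in 1.85% of all 35116 windows. The AP-1 motif TGANTCA was found in 1 of the 11, that of *ITGA5*, and in 7.71% of all windows. The GC box GGGCGG, bound by Sp1, was found in 7 of the 11, from 5 of the members, and in 45% of all windows. The GC content, in the window of each gene that holds the most GENCODE coding transcript starts, ranged from 31.7% for *ITGB6* to 78.3% for *ITGB1*. The stretches below show the *ITGA5* match and, for the shared subunit *ITGB1* and the member with the largest change, *ITGB8*, the nearest GC box before the start, each 5′ to 3′ on the gene's strand with the match in capitals.
ITGA5, chr12:54419254-54419283, minus strand, AP-1: cctccccgcgtTGAGTCAttcgcctctggg
ITGB1, chr10:32958271-32958300, minus strand, GC box: agtcccctcctcCCGCCCctgaggaggagg
ITGB8, chr7:20330839-20330868, plus strand, GC box: accacccctctcCCGCCCatcgccggcctc
The *ITGA5* match begins 6 bases before the RefSeq start, and the GC boxes of *ITGB1* and *ITGB8* begin 58 and 49 bases before theirs. A match is a description of letters and was not tested for binding.

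Total counts were 16686472 to 18287923 in LV-NC and 18666696 to 20562768 in LV-*ATF7*. *ATF7* itself was 50.6, 46.4 and 52.2 CPM (a count relative to the TMM-scaled library total) in LV-NC, against 21.9, 25.7 and 28.0 CPM where the label says LV-*ATF7*. It was thus lower where it should be higher, with 18.2% and 27.1% of its exon bases shared with genes on the same and the opposite strand. Each direction below follows labels that the *ATF7* counts go against, and it would turn over if the labels were exchanged. LV-NC replicate 1 stood apart from replicates 2 and 3 (r = 0.967 and 0.969 across genes, which are not independent, against 0.994 between those), and values without it are given below. All 8 keratinocyte markers examined have a row in the table, and their summed level was 1123 to 1994 CPM in LV-NC and 5721 to 6175 CPM in LV-*ATF7*. Of the 8, 4 rose, 1 fell and 3 were not called, and without LV-NC replicate 1, 4 were higher and 4 lower. The share called was 62.5%, beside 67.6% of all genes tested, and without LV-NC replicate 1 80.1% of all genes were called. *KRT5* and *TP63* rose (log2 fold changes 3.65 and 3.90), whereas *KRT14* fell by 2.37, with 0.375, 12.5 and 11.3 CPM in LV-NC and 1.38 to 1.82 CPM in LV-*ATF7*, so LV-NC replicate 1 overlapped the other group. Without that library *KRT14* fell by 2.96. Of the markers of fibroblasts, monocytes and macrophages, endothelium and melanocytes, 2 of 7, 4 of 8, 2 of 4 and 1 of 4 have a row. Their summed levels in LV-NC and LV-*ATF7* were 33.1 to 42.7 and 17.3 to 21.7 CPM for fibroblasts and 7.92 to 11.1 and 13.1 to 15.5 CPM for monocytes and macrophages. They were 1.12 to 5.5 and 84.6 to 89.9 CPM for endothelium, where *CDH5* alone was 0.642 to 4.86 and 81.0 to 86.2 CPM, and 1.87 to 2.2 and 3.42 to 6.03 CPM for melanocytes. A sum can hide members that differ. By group means, *CD14* rose from 1.61 to 8.17 CPM and *CSF1R* fell from 2.79 to 0.611 CPM, and 2 monocyte and macrophage markers were not called. Of the fibroblast markers, *COL1A1* fell from 36.7 to 16.8 CPM, and *DCN*, at 0.553 and 2.67 CPM, was not called. *DCN* was 1.66, 0 and 0 CPM in LV-NC replicates 1, 2 and 3 and 2.18, 3.01 and 2.82 CPM in LV-*ATF7*. Without LV-NC replicate 1 *DCN* was called higher (edgeR adjusted p = 1.39e-09). The part of these shifts in the integrin results was not tested, and in bulk RNA fewer cells of a type cannot be told apart from less RNA per cell.

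All 8 subunit genes were called different between the groups, that is, had a Benjamini-Hochberg adjusted p under 0.05 over 12462 genes in the quasi-likelihood test of edgeR, where 67.6% of all genes tested did. By the labels, *ITGB8*, *ITGA2*, *ITGB6* and *ITGA3* were higher in LV-*ATF7*, and *ITGB5*, *ITGA5*, *ITGB1* and *ITGAV* were lower. Of all genes, 34.7% were called higher and 32.9% lower. The largest rise was 3.02-fold, for *ITGB8*, and the largest fall 2.36-fold, for *ITGB5*. For each of the 8 genes, the ranges of LV-NC and LV-*ATF7* were separate, as they were for 72.7% of all genes. The median size of the log2 fold change was 0.61 over the members and 0.67 over all genes, and 4 of the 8 were called with a change of 1.5-fold or more, against 52.9% of all genes. Calls were thus common among the genes of the deposited table, none of which had fewer than 51 counts in all. Genes without a row are not part of these shares.

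**Figure D1:**
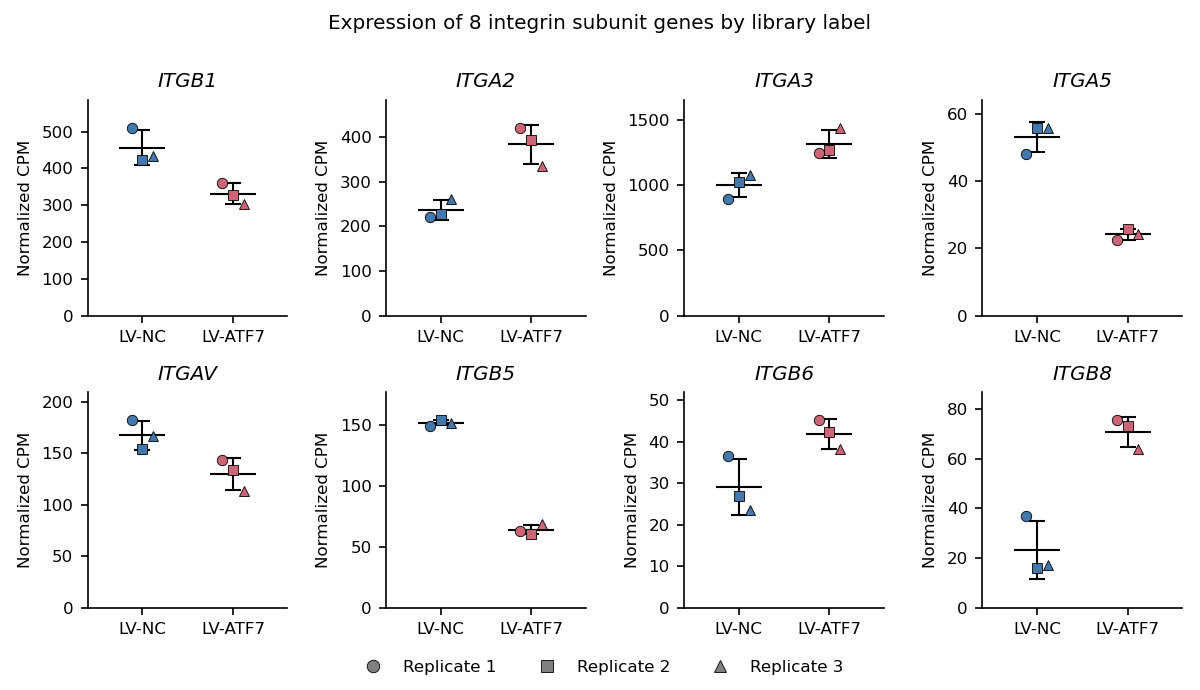
Normalized CPM of each of the 8 subunit genes (y axis, from 0) in the 3 libraries per label (x axis), with the replicate number as marker shape and the group mean and SD as bars. No gene overlaps between the groups, and LV-NC replicate 1 lies above the other LV-NC libraries for *ITGB8* (36.9 against 16.1 and 17.3 CPM) and *ITGB6*.

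The shared beta subunit *ITGB1*, which pairs with α2, α3, α5 and αv, was 510.1, 422 and 435 CPM in LV-NC replicates 1, 2 and 3 and 361, 329 and 304 CPM in LV-*ATF7* replicates 1, 2 and 3. The lowest LV-NC library was above the highest LV-*ATF7* library, and LV-NC replicate 1 was the highest of all. The group means were 456 ± 47.4 and 331 ± 28.7 CPM (SD, n = 3 each), and the log2 fold change came to -0.46 (standard error, SE, 0.11, edgeR adjusted p = 0.00722). Without LV-NC replicate 1 the log2 fold change was -0.39.

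The alpha partners of β1 did not move together. *ITGA2*, the collagen-binding subunit, was 221, 228 and 262 CPM in LV-NC and 421, 395 and 336 CPM in LV-*ATF7*. Every LV-*ATF7* library was above every LV-NC library, and the spread was wider in LV-*ATF7*, at 384 ± 43.2 against 237 ± 21.8 CPM (SD, n = 3 each). The log2 fold change was 0.70 (SE 0.12, edgeR adjusted p = 0.00107). *ITGA3*, the laminin-binding subunit, was 897, 1028 and 1081 CPM in LV-NC and 1246, 1268 and 1440 CPM in LV-*ATF7*. It was the most abundant of the 8 by CPM in every library, above 99.5% of all genes tested. Its rise was small, from 1002 ± 94.5 to 1318 ± 106 CPM (SD, n = 3 each), with a log2 fold change of 0.40 (SE 0.12, edgeR adjusted p = 0.0167). With library size alone in place of TMM, which shifted the median over all genes by -0.16 (log2), that of *ITGA3* was 0.23 and it was not called (edgeR adjusted p = 0.0643).

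*ITGA5*, the alpha subunit of the fibronectin receptor, was 48.1, 55.9 and 55.8 CPM in LV-NC and 22.6, 25.9 and 24.3 CPM in LV-*ATF7*. The groups were far apart relative to their spread, at 53.3 ± 4.5 and 24.3 ± 1.7 CPM (SD, n = 3 each). The fall was 2.19-fold (log2 fold change -1.13, SE 0.11, edgeR adjusted p = 5.74e-05), and without LV-NC replicate 1 it was 2.33-fold. Thus, among the members, *ITGA2* and *ITGA3* rose while *ITGA5* and *ITGB1* itself fell. *ITGAV* was 182, 154 and 167 CPM in LV-NC and 143, 134 and 113 CPM in LV-*ATF7*. Its means of 168 ± 13.9 and 130.1 ± 15.7 CPM (SD, n = 3 each) differed by the smallest change of the family, a log2 fold change of -0.37 (SE 0.12, edgeR adjusted p = 0.022). This call was lost without LV-*ATF7* replicate 2 (edgeR adjusted p = 0.0573) and without LV-*ATF7* replicate 3 (edgeR adjusted p = 0.0644).

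The beta partners of αv moved in opposite directions. *ITGB5*, of the vitronectin receptor, was 149.7, 154 and 152 CPM in LV-NC and 63.5, 60.7 and 68.6 CPM in LV-*ATF7*. Its LV-NC libraries were the most alike of any member, with an SD of 1.39% of the mean. The fall from 152 ± 2.11 to 64.3 ± 4.04 CPM (SD, n = 3 each) had a log2 fold change of -1.24 (SE 0.088, edgeR adjusted p = 1.26e-05).

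*ITGB8*, of a receptor for latent TGF-β, was 36.9, 16.1 and 17.3 CPM in LV-NC and 75.4, 73.2 and 64.0 CPM in LV-*ATF7*. LV-NC replicate 1 was more than double the other LV-NC libraries but still below every LV-*ATF7* library. The means were 23.4 ± 11.7 and 70.9 ± 6.02 CPM (SD, n = 3 each), with a log2 fold change of 1.59 (SE 0.30, edgeR adjusted p = 0.00181). Without LV-NC replicate 1 the log2 fold change was 2.07, a 4.19-fold rise. *ITGB6*, of the wound-edge receptor αvβ6, was 36.7, 27.0 and 23.6 CPM in LV-NC and 45.2, 42.3 and 38.2 CPM in LV-*ATF7*. The gap between the closest libraries of the groups was small, 36.7 against 38.2 CPM. The means were 29.1 ± 6.8 and 41.9 ± 3.52 CPM (SD, n = 3 each), and the log2 fold change was 0.53 (SE 0.17, edgeR adjusted p = 0.0239). *ITGB6* was called in only 2 of the 6 fits that each left out a library. Those were the fits without LV-NC replicate 1 (log2 fold change 0.71, edgeR adjusted p = 1.34e-06) and without LV-*ATF7* replicate 3 (edgeR adjusted p = 0.0448).

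**Figure D2:**
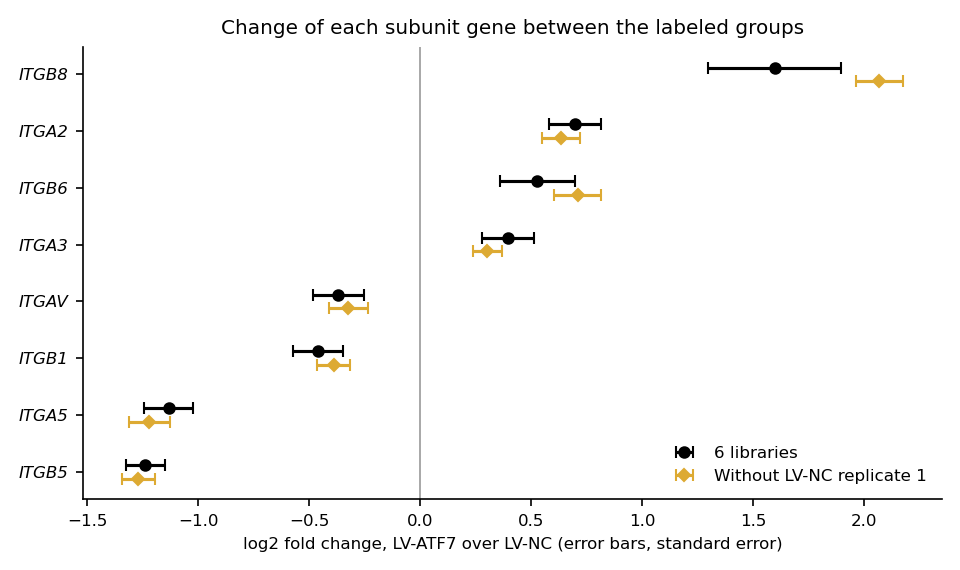
Log2 ratio of LV-*ATF7* to LV-NC (x axis) with its SE for each subunit gene (y axis), from all 6 libraries (circles) and without LV-NC replicate 1 (diamonds). The direction is the same in both fits for every gene, and *ITGB8* moves most, from 1.59 to 2.07.

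LV-NC replicate 1 did not lie on one side for the whole family. On the log2 CPM scale it lay toward the LV-*ATF7* libraries, relative to the mean of LV-NC replicates 2 and 3, for *ITGB8* (by 1.14), *ITGB6* (0.54), *ITGA5* (-0.22) and *ITGB5* (-0.03). For *ITGB1* (0.25), *ITGA2* (-0.14), *ITGA3* (-0.23) and *ITGAV* (0.18) it lay on the far side. For all 8 genes it lay outside the range of the other LV-NC libraries, a range set by only 2 libraries. For *ITGB5* it lay just outside, at 149.7 against 154 and 152 CPM. The share of all genes for which it lay outside was not examined. Without it all 8 genes were still called, where 80.1% of all genes were.

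Levels of different genes can be compared only per length, so CPM were divided by the length of each gene's GENCODE exons counted once, in kilobases. In LV-NC the order was *ITGA3* (102 ± 9.65 CPM per kb, SD, n = 3), *ITGB1* (75.8 ± 7.89), *ITGA2* (28.0, 28.8 and 33.1 in replicates 1, 2 and 3), *ITGB5* (23.5 ± 0.327), *ITGAV* (20.5 ± 1.69), *ITGA5* (7.03 ± 0.594), *ITGB6* (6.2 ± 1.45) and *ITGB8* (1.55 ± 0.772). Only the neighbors *ITGA5* and *ITGB6* overlapped between libraries. In LV-*ATF7* the order was *ITGA3* (134 ± 10.8 CPM per kb, SD, n = 3), *ITGB1* (55.1 ± 4.77), *ITGA2* (48.5 ± 5.46), *ITGAV* (15.8 ± 1.91), *ITGB5* (9.97 ± 0.626), *ITGB6* (8.94 ± 0.75), *ITGB8* (4.68 ± 0.397) and *ITGA5* (3.2 ± 0.224). There *ITGB1* overlapped *ITGA2*, and *ITGB5* overlapped *ITGB6*. The order rests on the exon length used. That of *ITGB8* is 15.2 kb, the longest, and by the authors' FPKM, which use another gene length, *ITGB1* ranked 4 in LV-NC in place of 2. Which length that is was not stated. In LV-NC *ITGB1* and *ITGAV* had 4.32 and 1.54 FPKM against 75.8 and 20.5 CPM per kb, but *ITGB8* had 1.19 against 1.55. The FPKM length of *ITGB1* and *ITGAV* was thus far above their exon length, and FPKM ranks of these genes are uncertain.

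Per length, the subunits β5, β6 and β8, which all need αv, summed to 31.3 ± 1.96 CPM per kb in LV-NC and 23.6 ± 0.778 in LV-*ATF7* (SD, n = 3 each). The makeup of that sum was not tested and is given by library. *ITGB5* was 69.3%, 77.8% and 79.2% of it in LV-NC and 40.3%, 40.5% and 46.2% in LV-*ATF7*. The share of *ITGB6* was 23.4%, 18.8% and 16.9% in LV-NC and 39.4%, 38.8% and 35.4% in LV-*ATF7*. The share of *ITGB8* was 7.28%, 3.46% and 3.85% in LV-NC and 20.3%, 20.8% and 18.4% in LV-*ATF7*. These shares rest on the exon length used. By the mean of the deposited FPKM, *ITGB5*, *ITGB6* and *ITGB8* were at 11, 1.36 and 1.19 in LV-NC and at 4.17, 1.74 and 3.17 in LV-*ATF7*, so *ITGB5* was the highest in both groups by either length, while in LV-*ATF7* the order of *ITGB6* and *ITGB8* turned over. Among the 4 alpha subunits, *ITGA3* held 64.0 ± 1.93% in LV-NC and 66.5 ± 4.14% in LV-*ATF7* (SD, n = 3 each), *ITGA2* 18.8 ± 0.68% and 24.1 ± 3.07%, *ITGAV* 12.9 ± 1.82% and 7.85 ± 1.07%, and *ITGA5* 4.4 ± 0.188% and 1.59 ± 0.122%. The shares of *ITGA3* overlapped between the groups, and those of *ITGA2*, *ITGAV* and *ITGA5* did not. These shares too rest on the exon length. By mean FPKM, *ITGA2*, *ITGA3*, *ITGAV* and *ITGA5* were at 9.7, 39.4, 1.54 and 3.26 in LV-NC. In LV-*ATF7* they were at 14.1, 46.3, 1.06 and 1.33. By FPKM *ITGA3* was thus still the highest, but *ITGAV* was below *ITGA5* in both groups.

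**Figure D3:**
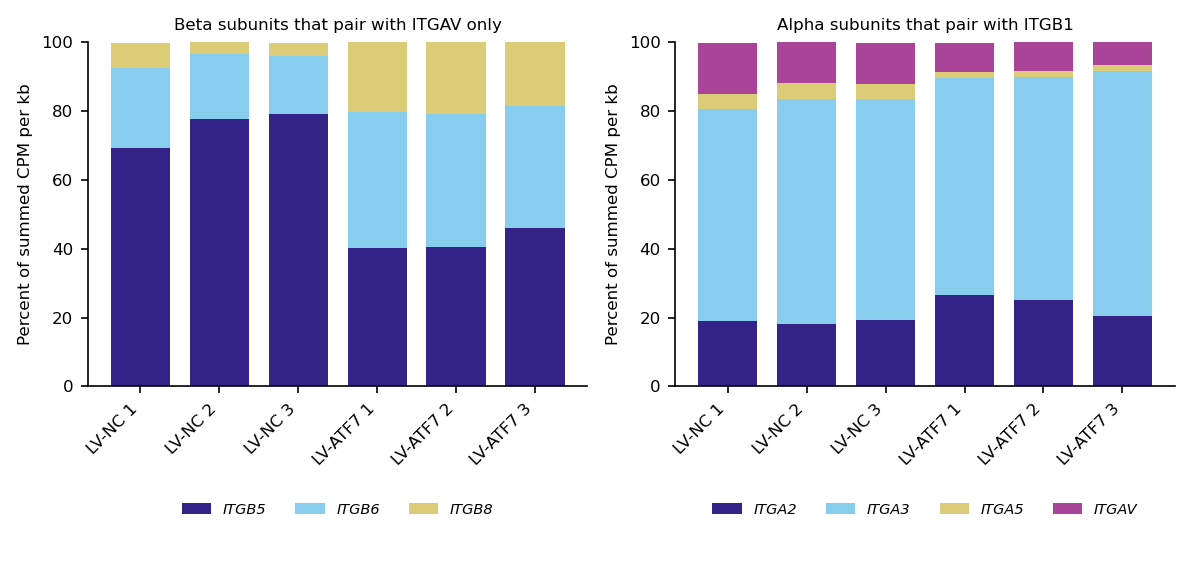
Percent of the summed CPM per kb (y axis) in each library (x axis) for the beta subunits *ITGB5*, *ITGB6* and *ITGB8* (left) and the alpha subunits *ITGA2*, *ITGA3*, *ITGA5* and *ITGAV* (right). *ITGB5* takes 69.3% to 79.2% of the left panel in LV-NC and 40.3% to 46.2% in LV-*ATF7*, while *ITGA3* takes the largest part of the right panel in every library.

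Because the partners of a receptor are counted in one library, their ratio does not depend on how libraries are scaled. For 7 partner pairs, the log2 ratio of CPM per kb was compared between the groups with a two-sided exact permutation test, whose smallest possible p with 3 libraries against 3 is 0.10. The *ITGB8*:*ITGAV* ratio differed most. It was -3.18, -4.14 and -4.15 in LV-NC and -1.81, -1.76 and -1.70 in LV-*ATF7*, a difference of 2.07 (SE 0.32), or 4.19-fold. The *ITGA2*:*ITGB1* ratio was -1.34 ± 0.24 in LV-NC and -0.19 ± 0.06 in LV-*ATF7* (SD, n = 3 each). The difference between the groups does not depend on gene length but the sign of a ratio does, since by the deposited FPKM *ITGA2* was above *ITGB1* in both groups (9.7 against 4.32 in LV-NC and 14.1 against 2.8 in LV-*ATF7*). The FPKM length of *ITGB1* was far above its exon length, so that sign is uncertain. The other differences of LV-*ATF7* minus LV-NC were 0.92 for *ITGB6*:*ITGAV*, 0.86 for *ITGA3*:*ITGB1*, -0.67 for *ITGA5*:*ITGB1* and -0.87 for *ITGB5*:*ITGAV*. These 6 ratios did not overlap between the groups and each had p = 0.10 (exact permutation test, adjusted p = 0.12 over the 7 pairs), which does not pass the threshold. How often ratios of other gene pairs are separate was not examined, and of single genes 72.7% were. The *ITGAV*:*ITGB1* ratio was -1.89 ± 0.05 in LV-NC and -1.80 ± 0.07 in LV-*ATF7* (SD, n = 3 each) and overlapped between the groups. Its difference of 0.09 (SE 0.052, p = 0.20 by the exact permutation test, adjusted p = 0.20) was the smallest of the 7.

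**Figure D4:**
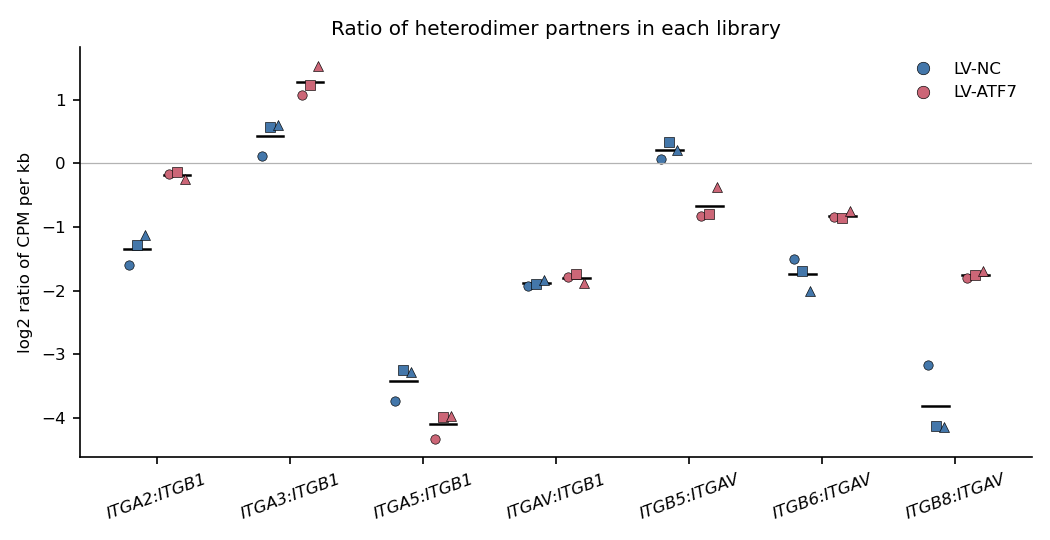
Log2 ratio of CPM per kb (y axis) for 7 pairs of heterodimer partners (x axis), with a point per library, marker shape for the replicate number and a bar at the group mean. The 6 pairs other than *ITGAV*:*ITGB1* are separated by label, and LV-NC replicate 1 lies nearest the LV-*ATF7* libraries for *ITGB8*:*ITGAV*.

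Over the 6 libraries, the genes most like *ITGB1* by Pearson's r of log2 CPM were *PDZD8* (r = 0.999), *PCGF5* (0.997) and *TRA2B* (0.997). Those most like *ITGB8* were *GALNT7*, *NFKBIZ* and *HIVEP1*, each with r of 0.999 or more. Of 11175 genes, 556 and 1261 had r over 0.95 with *ITGB1* and *ITGB8*, and the r values take in the difference between the groups.

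The rest of the integrin pathway was described by 8 gene lists. Of 18 other integrin subunits, 11 have a row in the table, and 2 rose, 3 fell and 6 were not called. The share called was 45.5%, beside 67.6% of all genes. The 2 that rose form α6β4, the receptor of hemidesmosomes, which anchor basal keratinocytes. *ITGB4* rose from 287 ± 36.1 to 1112 ± 77.9 CPM (SD, n = 3 each), by 1.95 on the log2 scale (edgeR adjusted p = 7.82e-06) and *ITGA6* from 147 ± 1.49 to 216 ± 15.4 CPM (SD, n = 3 each), by 0.56 on the log2 scale (edgeR adjusted p = 7.12e-04). The 3 that fell, *ITGA2B*, *ITGA10* and *ITGB7*, named after their values were seen, had at most 17 counts on average, and *ITGB7* was not called without LV-NC replicate 1 (edgeR adjusted p = 0.0517). The leukocyte subunits *ITGAM* and *ITGB2*, named here after their values were seen, were 2.65 ± 1.82 and 2.44 ± 0.46 CPM in LV-NC (SD, n = 3 each) and were not called, but *ITGAM* was called lower without LV-NC replicate 1 (log2 fold change -0.90, edgeR adjusted p = 0.00139).

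Matrix ligands were called in 15 of 16 cases, 8 higher and 7 lower, against 67.6% of all genes called. Chains of laminin-332, a ligand of α3β1, went in different directions. *LAMB3* rose from 644 ± 94.5 to 1012 ± 66.7 CPM, whereas *LAMA3* fell from 229 ± 45.1 to 101 ± 5.56 CPM (SD, n = 3 each). Their log2 fold changes were 0.65 and -1.17 (edgeR adjusted p at most 0.00266). *LAMA5* and *LAMB1*, chains of laminins other than laminin-332, rose by 2.20 and 1.53 on the log2 scale. *FN1*, the ligand of α5β1, was 36.6, 79.2 and 84.5 CPM in LV-NC and 43.6, 43.5 and 44.8 CPM in LV-*ATF7*. The LV-NC libraries lay on both sides of the others, and *FN1* was not called (log2 fold change -0.60, edgeR adjusted p = 0.0836) except without LV-NC replicate 1 (log2 fold change -0.92, edgeR adjusted p = 1.82e-10). *TNC*, a ligand of αvβ6, fell by 3.68 on the log2 scale, from 1.23, 10.9 and 14.5 CPM in LV-NC to 0.893, 0.765 and 0.387 CPM in LV-*ATF7*. *CCN2*, a matricellular protein that binds integrins, fell from 21.8 ± 2.22 to 0.717 ± 0.142 CPM (SD, n = 3 each), a log2 change of -4.91 (edgeR adjusted p = 1.39e-06).

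All 4 measured genes of latent TGF-β were called, beside 67.6% of all genes. *LTBP3* (log2 fold change 0.68) and *TGFB1* (0.37, edgeR adjusted p = 0.0449) were higher, the latter with overlapping libraries, and *TGFB3* (-1.62) and *LTBP1* (-1.06), which encode a ligand and a latent TGF-β binding protein, were lower.

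The adaptors that bind integrin tails were split in the same way. Of 27 talin, kindlin and adaptor genes tested, 10 rose, 11 fell and 6 were not called. The share called was 77.8%, beside 67.6% of all genes, of which 34.7% were called higher and 32.9% lower. *TLN1*, the talin that switches integrins on, fell from 558 ± 123 to 268 ± 15.1 CPM (SD, n = 3 each), a log2 change of -1.06 (edgeR adjusted p = 6.60e-04). Of the kindlins, *FERMT1*, the main form of epithelia, rose by 0.80 and *FERMT2*, the widely expressed form, fell by 1.33 on the log2 scale. Large differences were those of *TNS3* and *TNS4*, tensins that bind beta tails. *TNS3* went from 31.3, 16.7 and 20.1 CPM in LV-NC to 823, 860.4 and 895 CPM in LV-*ATF7* (log2 fold change 5.24, edgeR adjusted p = 2.17e-06), and *TNS4* from 4.93, 5.03 and 6.31 to 127, 132 and 141 CPM (log2 fold change 4.62, edgeR adjusted p = 7.90e-07). *TGFB1I1*, the paxillin relative Hic-5, also rose by 4.62 on the log2 scale. All LV-NC libraries were far below the LV-*ATF7* libraries for these 3 genes.

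Downstream, 8 of 18 genes of focal adhesion kinase signaling rose, 7 fell and 3 were not called. The share called was 83.3%, beside 67.6% of all genes. *PTK2*, which encodes focal adhesion kinase, rose from 148 ± 29.1 to 289 ± 9.11 CPM (SD, n = 3 each), by 0.97 on the log2 scale (edgeR adjusted p = 4.42e-04). *FYN*, a Src family kinase, fell from 24.0 ± 1.85 to 1.21 ± 0.0294 CPM (SD, n = 3 each), a log2 change of -4.31 (edgeR adjusted p = 1.03e-06). *CDC42*, a small GTPase, rose by 1.31 on the log2 scale, at low levels of 3.49 ± 1.35 and 8.69 ± 0.975 CPM (SD, n = 3 each). *GIT1*, a focal adhesion scaffold, fell by 0.97 on the log2 scale. Of 4 integrin inactivators, 2 rose and 1 fell, a share of 75% called beside 67.6% of all genes. *SHANK3*, which holds back Rap1 and so talin, had a log2 fold change of 2.53. That of *ITGB1BP1*, which competes with talin for the β1 tail, was -0.52.

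Of 14 genes of integrin traffic, 5 rose, 6 fell and 3 were not called. The share called was 78.6%, beside 67.6% of all genes. *SNX17*, which recycles β1 integrins from endosomes, rose by 1.39, *RAB4A*, of the fast recycling route, by 0.97 and *CAV1*, the coat protein of caveolae, by 2.22 on the log2 scale. All 11 membrane partners of integrins were called, 6 higher and 5 lower, where 67.6% of all genes were. *EGFR*, the receptor for EGF, rose from 327 ± 81.3 to 1666 ± 67.9 CPM, and *CD47*, a partner of αv and β1 integrins, from 123 ± 15.7 to 453 ± 23.8 CPM (SD, n = 3 each), with log2 fold changes of 2.35 and 1.87. *PLAUR*, the urokinase receptor, was 48.8, 106 and 108 CPM in LV-NC and 6.48, 8.31 and 10.9 CPM in LV-*ATF7*, a log2 fold change of -3.35. Without LV-NC replicate 1, no list's number of genes higher or lower moved by more than 1.5 times. The lists were written with results of these data known, and no list was tested as a set.

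**Figure D5:**
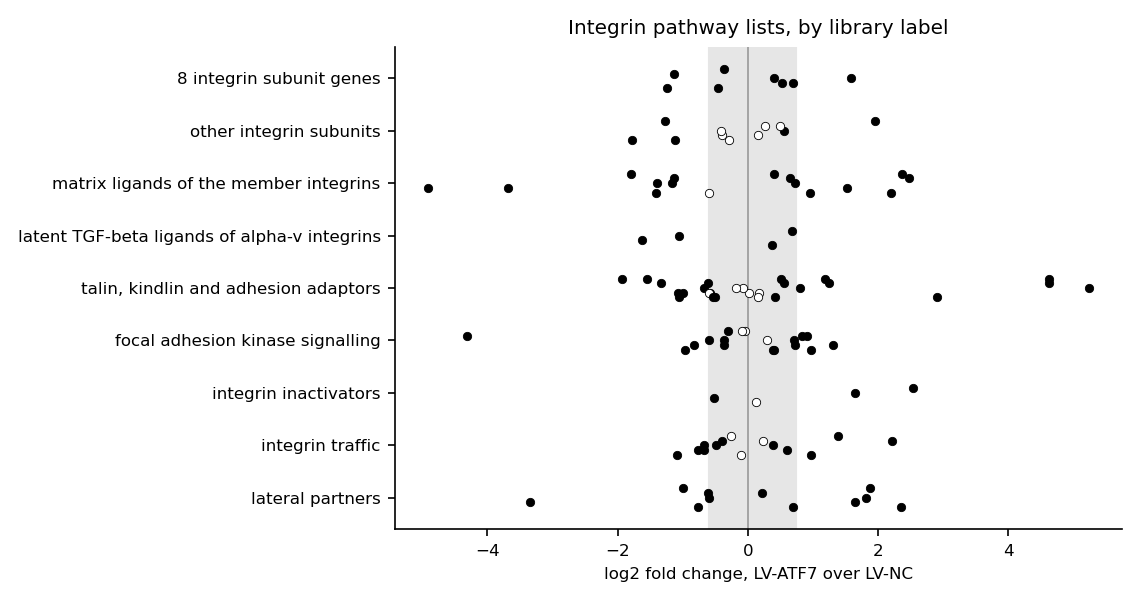
Log2 ratio of LV-*ATF7* to LV-NC (x axis) for each tested gene of the 8 subunit genes and the 8 pathway lists (y axis), filled where the adjusted p is under 0.05, over a gray band from the first to the third quartile of all genes (-0.60 to 0.74). Each list of more than 5 genes has filled points on both sides of 0, and *TNS3*, *TNS4* and *TGFB1I1* lie farthest to the right.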

How the data were processed

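RNA-seq libraries of HaCaT cells, 3 labeled LV-NC and 3 labeled LV-*ATF7*, were analyzed. The authors deposited raw counts of reads per gene without normalization, beside FPKM values. The genome build is GRCh38 per the submitters' processing notes, and the aligner, counting program, annotation and strandedness are not given in the sources used here. The deposited FPKM values were used only for the order of levels and as an alternative for ratios. Columns with the authors' own fold changes and p-values were not used. No gene in the table had fewer than 51 counts in all, and 37 of the 12499 genes failed filterByExpr.

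After TMM scaling, the quasi-likelihood test of edgeR 4.0.16 was run in R 4.3.3, LV-*ATF7* against LV-NC without covariates, with Benjamini-Hochberg adjustment over 12462 genes and a threshold of 0.05. Standard errors are the log2 fold change divided by the square root of F. Ratios used log2 CPM with a prior count of 2 and an exact permutation test (scipy 1.17.1, Python 3.11.15). GENCODE release 29 held 12485 of the identifiers. The pipeline was tested on simulated data. With totals of 16686472 to 20562768 counts, each member had 299 or more counts in every library.

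The members and lists were chosen with earlier results of these data known. The genes named were the 8 members, fixed partners and ligands, up to 3 genes of each list with the largest change among those called with at least 50 counts on average, the 3 genes most like *ITGB1* and *ITGB8*, and exceptions stated as such. The cell type markers *KRT5*, *TP63*, *KRT14*, *CDH5*, *CD14*, *CSF1R*, *COL1A1* and *DCN* are on the marker lists and were picked for naming after their values were seen. Among the fixed names, *VTN* and *ILK* have no row and were not analyzed here. A gene that the rule names is not reported here. Of the markers of each cell type the text gives the summed level and how many have a row. Within a group, libraries were further apart than sampling noise (chi-square per gene 2.85 to 75.4). The alternatives tried were upper quartile scaling, scaling by library size only, 2 other filters, DESeq2 1.42.0, quality-weighted voom (limma 3.58.1), a replicate block, and leaving out each library.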

Additional observations from a re-analysis of the deposited data

How the results depend on the processing

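All 8 subunit genes kept their direction in the 13 alternative fits, and *ITGB1*, *ITGA2*, *ITGA5*, *ITGB5* and *ITGB8* were called in each. With library size only, 2 of the 8 genes were called higher in place of 4, since *ITGA3* (log2 fold change 0.23) and *ITGB6* (0.36, adjusted p = 0.13 from edgeR) were not called. That scaling moved the median of all genes by -0.16. Across the 6 fits that each left out a library, the log2 fold change ran from 0.30 to 0.44 for *ITGA3*, from -0.46 to -0.27 for *ITGAV* and from 0.35 to 0.71 for *ITGB6*. *ITGA3* was not called without LV-*ATF7* replicate 3, *ITGAV* without LV-*ATF7* replicate 2 or 3, and *ITGB6* without LV-NC replicate 2 or 3 or LV-*ATF7* replicate 1 or 2. With 2 libraries left in a group, the fit has fewer residual degrees of freedom. The number of genes called, 8429, stayed within 1.5 times, from 7290 to 10391.

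Libraries with the same replicate number in their titles did not deviate together (correlation of deviations from the group means 0.058, -0.021 and 0.065). The library names of LV-NC replicate 3 and LV-*ATF7* replicate 3 carry different numbers, so that pair rests on the titles alone. With the replicate block, 8210 genes were called and the 8 subunit genes kept their calls, with *ITGB6* at 0.55 and *ITGB8* at 1.69 on the log2 scale. By the deposited FPKM, the rank among the 8 was 4 in LV-NC and 5 in LV-*ATF7* for *ITGB1*, 5 and 7 for *ITGA5*, 6 and 8 for *ITGAV* and 2 and 3 for *ITGB5*, and in LV-*ATF7* it was 2 for *ITGA2* and 4 for *ITGB8*. The direction of the difference in the 7 ratios did not change with a prior count of 0.5 or without any one library. With FPKM the differences were the same, since library scaling and a fixed gene length cancel in them. FPKM is thus no check of these differences. The shares and lists without LV-NC replicate 1 were added after the data were seen. The 3 libraries per group limit every p of the ratios to 0.10 or more.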
